A study of Mus musculus with 6 samples.

Results

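Genes of homologous recombination, of the Fanconi anaemia pathway and of the DNA damage checkpoint were examined in mouse cultures labelled as aortic endothelial cells and as lacking the kinases ERK1 and ERK2. A list of 42 genes was chosen by function, and 38 of them had a row of the expression table that named that gene alone, out of 14860 genes tested in all. Each of the 38 had 1 such row, and the other 4 (Xrcc2, Rbbp8, Fancd2 and Atr) were not analysed here. The cells came from the aorta of mice aged 4 weeks, given as strain C57/BL6 (5 generations), and were infected with lentivirus in culture. Cultures labelled ERK1/2 null (3 arrays) were Erk1-/-; Erk2fl/fl cells that received Cre, given as lentiviral-egfp-Cre for replicate 1 and lentiviral-Cre for replicates 2 and 3. Cultures labelled ERK1/2 wild type (3 arrays) were also Erk1-/-; Erk2fl/fl by their genotype label and received lentiviral-GFP, so by that label both groups lacked Erk1. The groups differed in Cre and in the loss of Erk2 that the title of the null cultures implies. The vector named for null replicates 2 and 3 has no GFP in its name, unlike that of the wild type cultures. RNA from each culture was hybridised to an Affymetrix expression array, and levels are log2 values made by the authors with RMA (robust multi-array average).

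Homologous recombination repairs a broken chromosome by copying the intact sister. The broken end is trimmed to a single-stranded tail, Brca1, Palb2 and Brca2 prepare the tail for strand exchange, it invades the sister, and the joined molecules are then separated. The Fanconi anaemia proteins recognise DNA crosslinked across its strands and pass it to this route, and the checkpoint kinases Atm, Atr, Chek1 and Chek2 hold the cell cycle while repair proceeds. A sister exists only after replication, and many of these genes are known to be transcribed mainly from late G1 to G2 in dividing cells.

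Of the 38 measured genes 25 fell in ERK1/2 null cultures and 0 rose, at a limma p under 0.05 after Benjamini-Hochberg adjustment over all 14860 genes. Of all genes tested, 6.12% were called lower and 5.35% higher by the same rule. At an unadjusted p under 0.05, 27 of the 38 were lower and 0 higher, beside 12.1% and 13.6% of all genes. With the replicate number as a block, 26 of the 38 were called lower and 0 higher, beside 7.76% and 8.92% of all genes. The median log2 difference (null minus wild type) over the 38 genes was -1.28, beside 0.02 over all genes, and 23 of the 38 were called and at least 2-fold lower, beside 2.81% of all genes. The genes that fell ranged from a log2 difference of -2.50 (Exo1) to -0.65 (Rad50).

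The genes that did not pass numbered 13. For 11 of them the unadjusted 95% interval of the log2 difference lay between -1 and 1, so that a change of more than 2-fold either way was outside the interval: Rad52, Dmc1, Nbn, Rmi1, Mus81, Slx4, Fancc, Fancg, Trp53bp1, Xrcc5 and Lig4. These are called genes that held within 2-fold, a class that took 71.0% of all genes tested. Chek2 and Xrcc3 were neither, since their intervals (-2.08 to -0.51 and -1.01 to 0.08) reached past 2-fold. The median difference was -1.84 over the genes that fell and -0.04 over those that held. All 3 null arrays lay below all 3 wild type arrays for 27 of the 38 genes, which are the 25 that fell, Nbn and Chek2, beside 14.6% of all genes. Within each of the 3 pairs of arrays that share a replicate number, 29 of 38 genes were lower in the null array, beside 23.3% of all genes, and the medians over the list in pairs 1, 2 and 3 were -1.51, -1.18 and -1.23.

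**Figure D1:**
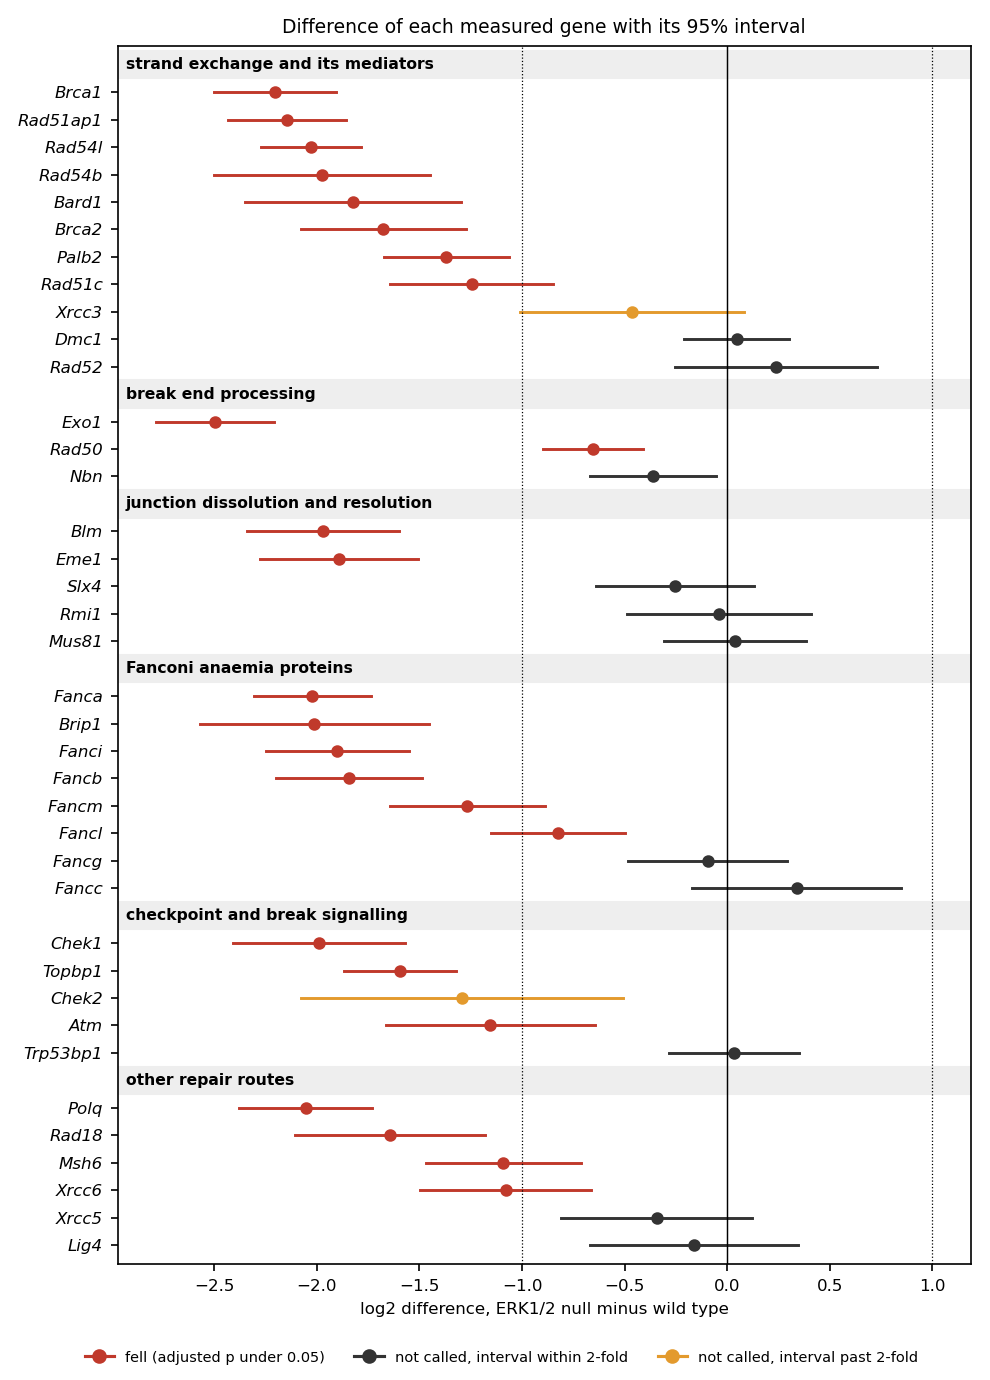
Log2 difference (ERK1/2 null minus wild type, 3 arrays each) of the 38 measured genes by role, with points for the limma estimate and lines for its unadjusted 95% interval; dotted lines mark 2-fold. The 25 genes that fell lie between -2.50 and -0.65, and the 11 that held lie between -0.36 and 0.34.

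The arrays could be checked against their labels only in part. Array medians over all rows lay between 6.13 and 6.27 in null and between 6.09 and 6.20 in wild type, and arrays of a group correlated at 0.975 to 0.986. Of 15 endothelial markers, 11 had a mean level under 4.62, a bound that an alternative filter used to leave out dim genes. The junction protein genes Pecam1 and Cdh5, which define endothelium, were among these 11, with Pecam1 at 3.95, 3.74 and 4.20 in null and 3.44, 3.76 and 4.12 in wild type, and Cdh5 at 3.32, 3.53 and 3.59 in null and 3.53, 4.50 and 3.63 in wild type. Eng and Flt1, the endothelial markers with the highest levels, averaged 9.73 ± 0.40 and 7.61 ± 0.65 in null and 9.28 ± 0.36 and 6.80 ± 0.57 in wild type (SD, n = 3 each). No endothelial marker was called (limma, 0 of 15), and at an unadjusted p under 0.05, 0 were lower and Erg was higher. With the replicate block Flt1 and Erg were called higher (blocked limma adjusted p = 0.0162 and 0.0344). Of all genes, 13.6% were higher at an unadjusted p under 0.05 and 8.92% were called higher with the block.

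Markers of other cells that an aortic culture can hold were read as well. Averaged over 9 fibroblast markers, the level was 8.34 to 10.23 on null arrays and 7.56 to 8.32 on wild type arrays. Of the 9, 2 were called higher (Col1a2 and Col3a1) and 6 with the replicate block, beside 5.35% and 8.92% of all genes. Col1a2 did not pass in 5 of the 6 fits with 1 array left out (limma adjusted p up to 0.11), whereas Col3a1 passed in each. Dcn, Dpt and Lum had the largest log2 differences (4.07, 3.36 and 2.87), and Pdgfra alone was lower (-0.34). Wild type arrays differed widely for Dcn, Dpt and Lum (SD 2.37, 2.02 and 1.16, n = 3). These 3 genes were called with the block (blocked limma adjusted p = 0.0262, 0.0449 and 0.0369), and not without it (0.208, 0.0753 and 0.236). Col1a1 averaged 12.54 ± 0.27 in null and 11.48 ± 0.50 in wild type (blocked limma adjusted p = 0.0147, 0.0586 without the block). Col1a2 averaged 12.23 ± 0.22 in null and 11.41 ± 0.25 in wild type, and Col3a1 10.53 ± 0.53 in null and 8.36 ± 0.09 in wild type (SD, n = 3 each). Over 8 smooth muscle markers the mean was 6.66 to 7.0 in null and 6.12 to 6.62 in wild type, with Acta2 at 12.58 ± 0.50 in null and 11.40 ± 0.54 in wild type, Tagln at 9.99 ± 0.47 in null and 9.34 ± 0.85 in wild type, and Myh11 at 4.45 ± 0.15 in null and 3.99 ± 0.08 in wild type (SD, n = 3 each). Of these markers 0 of 8 were called by limma (3 at an unadjusted p under 0.05, all higher) and 3 with the block, Acta2 among them (blocked limma adjusted p = 0.0281). Of all genes, 13.6% were higher at an unadjusted p under 0.05 and 8.92% were called higher with the block. Over 5 macrophage markers the mean was 4.04 to 4.40 in null and 3.98 to 4.19 in wild type, under the same bound of 4.62, with Cd68 at 5.93 ± 0.07 in null and 5.78 ± 0.09 in wild type and Cd14 at 5.38 ± 0.55 in null and 4.69 ± 0.40 in wild type (SD, n = 3 each). Of these 0 of 5 were called by limma (0 at an unadjusted p under 0.05), and 1 was called higher with the block (Cd14, blocked limma adjusted p = 0.0234), beside the same shares of all genes. The part of these cells in the differences of the repair genes was not tested.

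Proliferation markers moved with the repair genes. All 6 that were measured fell, beside 6.12% of all genes. Their median was -2.28, with mean levels of 7.44 to 7.69 on null arrays and 9.84 to 10.05 on wild type arrays. Mki67, which marks cycling cells, had 7.05, 7.22 and 6.90 in null and 9.79, 9.82 and 9.84 in wild type (log2 difference -2.76, SE 0.12, limma adjusted p = 0.00142). Top2a, the topoisomerase of S phase to mitosis, and Ccna2, the cyclin of S and G2, had differences of -2.30 and -2.26. The part of the number of cycling cells in the differences of the repair genes was not tested, and in RNA from whole cultures fewer cells of a kind and less RNA per cell cannot be told apart.

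**Figure D2:**
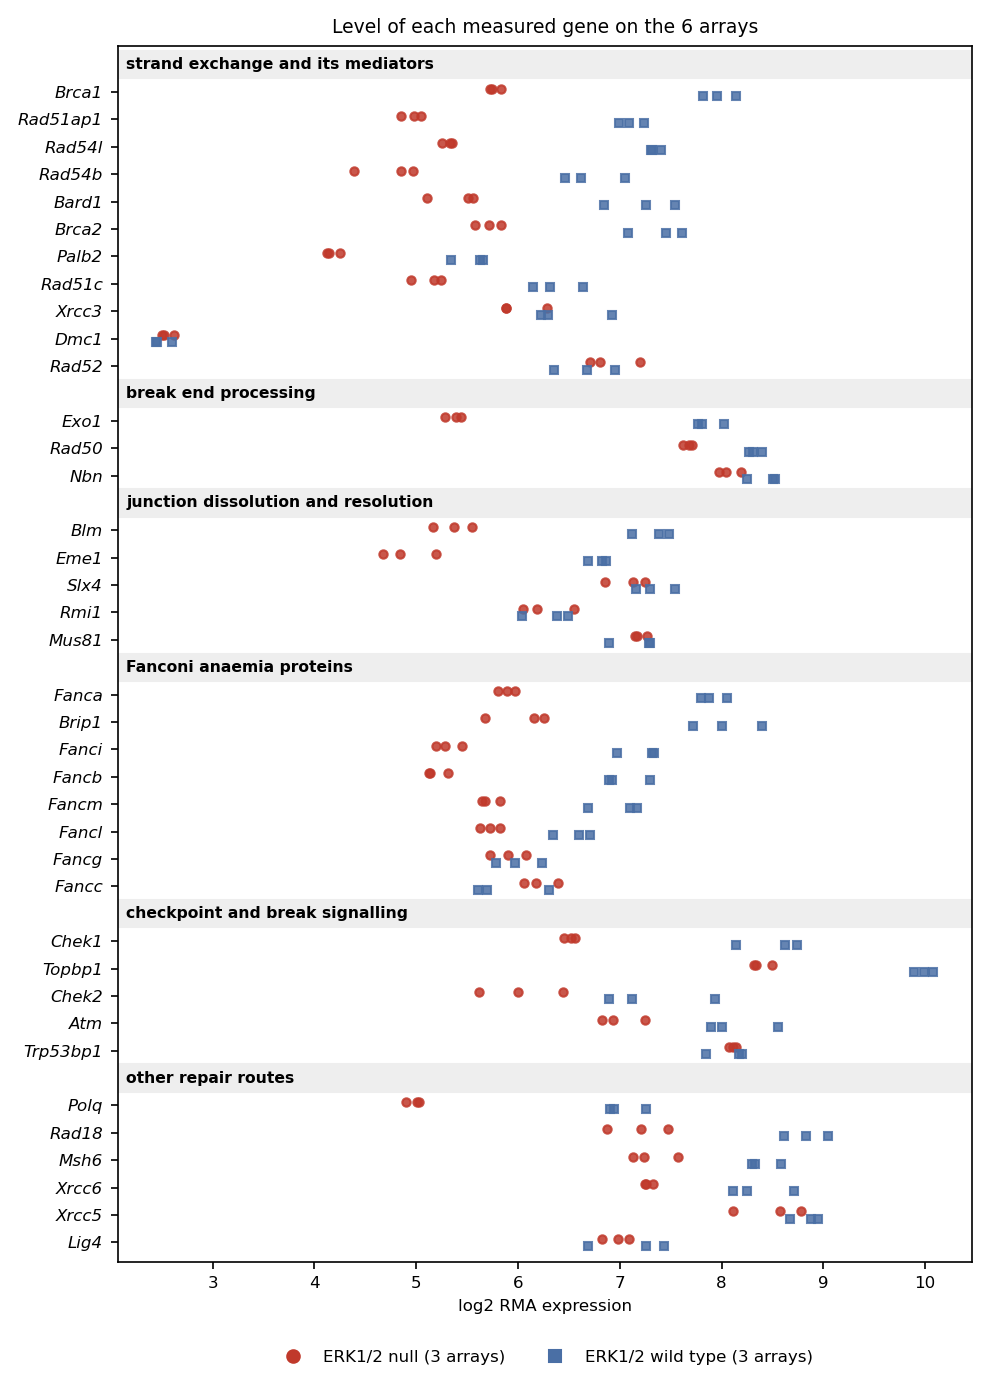
Log2 RMA expression of the 38 measured genes on each of the 6 arrays, null arrays as circles and wild type arrays as squares, by role and within a role by difference. Circles lie to the left of all squares for 27 genes, and the 2 sets overlap for the other 11; levels of different genes come from different probes and are not comparable.

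Resection of the broken end held both the gene with the largest fall and one of the smallest. Exo1, the exonuclease that lengthens the single-stranded tail, had 5.39, 5.28 and 5.44 in null cultures, against 8.02, 7.81 and 7.76 in wild type. Null arrays were 2.33 log2 units or more below every wild type array, and the fall of 5.64-fold (log2 difference -2.50, SE 0.12, limma adjusted p = 0.00142) placed Exo1 at rank 16 from the bottom among all 14860 genes. Rad50, which with Mre11 and Nbn forms the complex that senses and first trims the end, had 7.68, 7.62 and 7.71 in null and 8.27, 8.39 and 8.31 in wild type. The groups did not overlap and the fall was 1.57-fold (log2 difference -0.65, SE 0.10, limma adjusted p = 0.0118; 0.0537 without null replicate 2). Nbn had 7.97, 8.19 and 8.04 in null and 8.25, 8.50 and 8.53 in wild type. Its groups were apart by only 0.06, and the log2 difference of -0.36 (95% interval -0.67 to -0.05) did not pass (limma adjusted p = 0.135).

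Of 11 genes of strand exchange 8 fell, beside 6.12% of all genes, with a median of -1.68 over the group. Brca1 and Bard1, which form a ubiquitin ligase that promotes resection, had log2 differences of -2.20 and -1.82. Brca1 had 5.74, 5.73 and 5.83 in null, against 8.14, 7.81 and 7.96 in wild type, a fall of 4.61-fold (SE 0.12, limma adjusted p = 0.00142). The highest null value was 1.98 below the lowest wild type value. Palb2, which joins Brca1 to Brca2, and Brca2, which prepares the tail for strand exchange, had log2 differences of -1.37 (SE 0.13) and -1.68 (SE 0.17).

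Rad51ap1, which stimulates the invasion of the sister, had 4.85, 4.98 and 5.05 in null and 7.23, 6.99 and 7.09 in wild type, a fall of 4.42-fold (log2 difference -2.15, SE 0.12, limma adjusted p = 0.00142). Rad54l, a motor that moves along DNA to help strand exchange, had 5.25, 5.35 and 5.33 in null and 7.40, 7.31 and 7.31 in wild type. It was the most even of the 38 genes by SE (log2 difference -2.03, SE 0.10), and a fall of 4.08-fold was seen against a spread of 0.05 (SD, n = 3) in each group. Its relative Rad54b fell by 1.97 (SE 0.22). Rad51c and Xrcc3 form a complex that assists strand exchange. Rad51c fell by 1.25 (SE 0.16, limma adjusted p = 0.00758), whereas Xrcc3 differed by -0.46 (limma adjusted p = 0.266) with overlapping groups.

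Rad52 and Dmc1 held. Rad52, which anneals complementary single strands and acts beside Brca2, had 7.20, 6.71 and 6.81 in null and 6.96, 6.36 and 6.68 in wild type. The groups overlapped, the difference was 0.24 (95% interval -0.25 to 0.73, limma adjusted p = 0.541), and Rad52 was the one gene of the list that was higher in the null array of all 3 pairs. Dmc1, the recombinase of meiosis, had 2.62, 2.52 and 2.50 in null and 2.45, 2.60 and 2.45 in wild type. It was also the one gene of the list with a mean level over the 6 arrays under 4.62, where RMA compresses differences, and its difference of 0.05 changed sign when array medians were subtracted (-0.04). The null arrays alone also lay under 4.62 for Palb2 (4.13, 4.14 and 4.25), as did null replicate 2 for Rad54b (4.39).

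In the steps that separate joined molecules, 2 of 5 genes fell and 3 held, beside 6.12% and 71.0% of all genes. Blm, the helicase that draws the junctions together, had 5.37, 5.16 and 5.54 in null and 7.48, 7.12 and 7.38 in wild type, a fall of 3.92-fold (log2 difference -1.97, SE 0.15, limma adjusted p = 0.00176). Eme1, the partner that makes Mus81 an active junction nuclease, had 4.84, 4.67 and 5.19 in null and 6.83, 6.86 and 6.69 in wild type, a fall of 3.72-fold (log2 difference -1.89, SE 0.16, limma adjusted p = 0.00202). The nearest null and wild type arrays of Blm were 1.57 log2 units apart, and the groups of Eme1 did not overlap either.

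Their direct partners held. Mus81, the catalytic subunit that pairs with Eme1, had 7.15, 7.17 and 7.27 in null and 7.29, 7.28 and 6.89 in wild type, a difference of 0.04 (95% interval -0.31 to 0.38) that turned to -0.05 when array medians were subtracted. Rmi1, which works with Blm and topoisomerase 3 alpha, had 6.55, 6.05 and 6.18 in null and 6.04, 6.49 and 6.38 in wild type, a difference of -0.04 (95% interval -0.49 to 0.41). For both genes the groups overlapped, and wild type replicate 3 was the lowest array for Mus81. Slx4, the scaffold that gathers junction nucleases, differed by -0.25 (95% interval -0.64 to 0.13, limma adjusted p = 0.39).

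The Fanconi anaemia group had 6 genes that fell and 2 that held, beside 6.12% and 71.0% of all genes, with a median of -1.55. Fanca, a subunit of the core complex that attaches ubiquitin to Fancd2 and Fanci, had 5.89, 5.81 and 5.97 in null and 8.06, 7.88 and 7.80 in wild type (log2 difference -2.02, SE 0.12, limma adjusted p = 0.00142). Fanci, the partner of Fancd2 on crosslinked DNA, had 5.29, 5.19 and 5.45 in null and 7.33, 7.32 and 6.98 in wild type (log2 difference -1.90, SE 0.14, limma adjusted p = 0.00176). Brip1, a helicase that binds Brca1, had 6.16, 5.67 and 6.26 in null and 8.40, 7.72 and 8.01 in wild type (log2 difference -2.01, SE 0.23, limma adjusted p = 0.00483). All 3 genes had null arrays well clear of the wild type arrays, by 1.83, 1.53 and 1.46 log2 units at the nearest approach, and replicate 2 was the lowest array of both groups for Brip1.

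Other subunits of the same core complex differed in their response. Fancb, which sits in the catalytic module, had a log2 difference of -1.84 (SE 0.15), and Fancl, the ubiquitin ligase itself, one of -0.82 (SE 0.14, limma adjusted p = 0.0144; 0.0622 without null replicate 2 and 0.0543 without wild type replicate 3). Fancm, the motor that brings the core complex to a stalled fork, fell by 1.27 (SE 0.16). Fancg had 5.72, 5.90 and 6.08 in null and 6.23, 5.97 and 5.78 in wild type, and Fancc had 6.17, 6.06 and 6.39 in null and 6.31, 5.70 and 5.61 in wild type. Groups overlapped for both of these core subunits, with differences of -0.09 (95% interval -0.48 to 0.29) for Fancg and 0.34 (95% interval -0.17 to 0.85) for Fancc.

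Checkpoint and break signalling genes fell in 3 of 5 cases, beside 6.12% of all genes. Chek1, the effector kinase that restrains origin firing and entry into mitosis when forks stall, had 6.52, 6.56 and 6.45 in null and 8.74, 8.62 and 8.14 in wild type, a fall of 3.97-fold (log2 difference -1.99, SE 0.17, limma adjusted p = 0.00222). Topbp1, the activator of Atr, had 8.34, 8.32 and 8.50 in null and 10.08, 9.99 and 9.89 in wild type, a fall of 3.02-fold (log2 difference -1.60, SE 0.11, limma adjusted p = 0.00153). The 2 genes belong to the same branch, which responds to single-stranded DNA at stalled forks.

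In the branch that responds to breaks, Atm, its leading kinase, had 7.25, 6.93 and 6.83 in null and 8.56, 8.01 and 7.90 in wild type. The groups did not overlap and its log2 difference was -1.15 (SE 0.21, limma adjusted p = 0.02). The adjusted p was 0.0796, 0.0712 and 0.0505 without null replicate 2, null replicate 3 and wild type replicate 2. Chek2, the effector kinase below Atm, had 5.62, 6.002 and 6.44 in null and 6.90, 7.93 and 7.12 in wild type. The groups did not overlap, but the spread within them was the widest of the list (SD 0.41 and 0.55, n = 3 each), and the log2 difference of -1.29 (SE 0.33) had a limma adjusted p of 0.0537, and of 0.0267 with the replicate block. Chek2 also passed with quantile normalization, subtracted array medians, a filter on level and weighted arrays. It passed in none of the fits with 1 array left out. Trp53bp1, which shields broken ends from resection, had 8.14, 8.11 and 8.07 in null and 7.85, 8.20 and 8.17 in wild type, and its difference of 0.03 (95% interval -0.28 to 0.35) turned to -0.05 when array medians were subtracted.

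Genes of other repair routes split in the same manner, with 4 of 6 lower, beside 6.12% of all genes. Polq, the polymerase of end joining at short matching sequences, had 5.01, 5.03 and 4.90 in null and 7.26, 6.90 and 6.94 in wild type (log2 difference -2.06, SE 0.13, limma adjusted p = 0.00148). Rad18, the ubiquitin ligase that calls in bypass polymerases, had 7.47, 6.88 and 7.21 in null and 9.04, 8.61 and 8.83 in wild type (log2 difference -1.64, SE 0.19, limma adjusted p = 0.00513). Msh6, which takes part in recognising mismatches, had 7.57, 7.13 and 7.24 in null and 8.58, 8.30 and 8.33 in wild type (log2 difference -1.09, SE 0.16, limma adjusted p = 0.00966). None of these 3 genes had overlapping groups, and for Rad18 and Msh6 replicate 1 was the highest array of both groups.

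Classical end joining, which rejoins ends without a template, had 3 genes on the list. Xrcc6, the smaller subunit of the Ku ring that caps the ends, fell by 1.08 (SE 0.17, limma adjusted p = 0.0133; 0.058 without null replicate 2). Xrcc5, the larger subunit, had 8.78, 8.11 and 8.57 in null and 8.88, 8.67 and 8.95 in wild type, a difference of -0.34 (95% interval -0.81 to 0.12). Lig4, the ligase that seals the ends, had 6.82, 7.09 and 6.98 in null and 6.69, 7.26 and 7.43 in wild type, a difference of -0.16 (95% interval -0.67 to 0.34). For Xrcc5 and Lig4 the groups overlapped and neither passed (limma adjusted p = 0.339 and 0.71).

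Genes whose products act together, or compete, were set against each other within each array, in 10 pairs chosen after their values were seen, so no test was made. The level of such a difference depends on the probes of both genes, and only its shift between groups can be read. Eme1 minus Mus81 was -2.31, -2.50 and -2.08 in null and -0.46, -0.42 and -0.21 in wild type, a shift of -1.93. Blm minus Rmi1 was -1.18, -0.88 and -0.64 in null and 1.44, 0.63 and 1.01 in wild type, a shift of -1.93. In both pairs the groups stood apart, and a constant added to all log2 values of an array would not alter this. Other kinds of scaling could. Each of these pairs set a gene that fell against one that held, so the shift restates that choice.

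Brca1, which favours resection, and Trp53bp1, which opposes it, gave a difference of -2.40, -2.38 and -2.24 in null and 0.30, -0.39 and -0.21 in wild type, a shift of -2.24. The Ku subunits gave a smaller shift, with Xrcc6 minus Xrcc5 at -1.52, -0.87 and -1.24 in null and -0.17, -0.43 and -0.84 in wild type (-0.74), and the nearest arrays almost met. The shift was -1.93 for Fanca minus Fancg, -2.27 for Rad54l minus Rad52, -0.78 for Rad51c minus Xrcc3 and -0.29 for Rad50 minus Nbn. Groups did not overlap in any of these, but for Rad50 minus Nbn the nearest arrays were close (-0.29 in null and -0.22 in wild type). Each of these pairs, with the Brca1 and Ku pairs, set a gene that fell against one that did not pass. The lack of overlap in part restates that choice. Chek1 minus Chek2 (-0.69) and Brca1 minus Bard1 (-0.38) overlapped between groups.

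**Figure D3:**
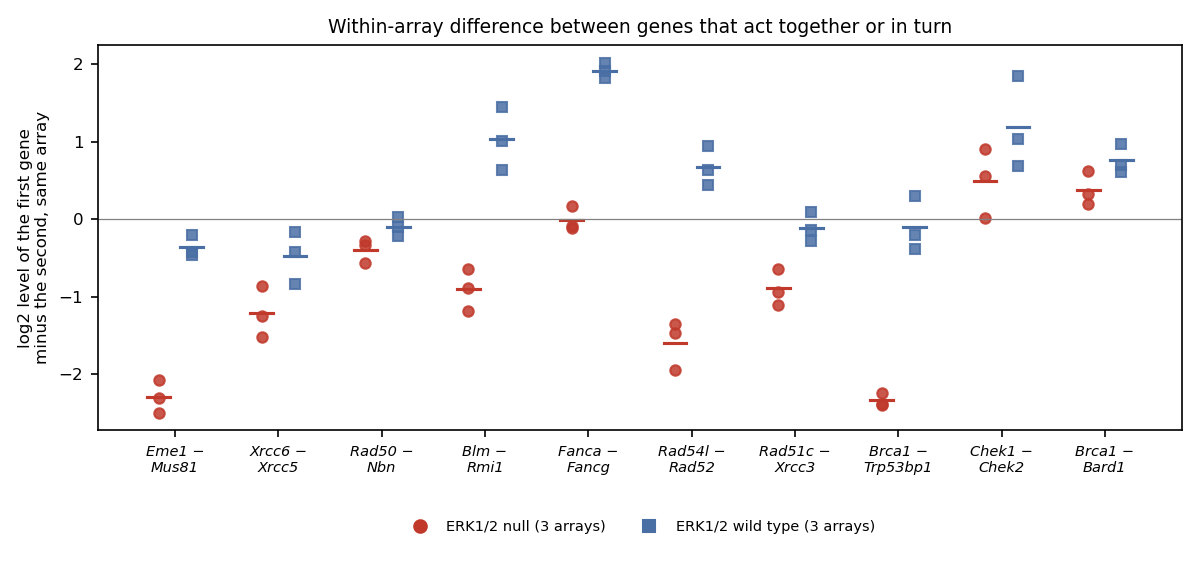
Log2 level of the first gene minus that of the second on the same array, for 10 pairs of genes, null arrays as circles on the left and wild type arrays as squares on the right of each pair, with bars for the mean of 3. The pairs were chosen after their values were seen, and no share over other pairs of genes was computed. The groups are apart in 8 pairs, each a gene that fell against one that did not pass, with the widest shift for Rad54l against Rad52 (-2.27). The nearest null and wild type arrays are at -0.87 and -0.84 for Xrcc6 against Xrcc5, and at -0.29 and -0.22 for Rad50 against Nbn. The groups overlap for Chek1 against Chek2 and Brca1 against Bard1.

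Further genes of the same pathways were taken from a list of 80, of which 67 were measured. Of these 37 fell and 0 rose by limma, with a median log2 difference of -0.72 and 25 genes that held within 2-fold. At an unadjusted p under 0.05, 45 were lower and 0 higher, and with the replicate block 39 fell and 0 rose. Of all genes tested, 6.12% fell and 5.35% rose by limma. The shares were 12.1% and 13.6% at an unadjusted p under 0.05, and 7.76% and 8.92% with the block. These shares also stand beside the counts of each further list below. Checkpoint and break signalling had the largest share, 15 of 19 lower (13 with the block, where Rad1 and Hus1, subunits of a checkpoint clamp, had blocked limma adjusted p of 0.0612 and 0.059). Clspn, the adaptor through which Atr activates Chek1, fell by 2.36 (SE 0.21, limma adjusted p = 0.00245), with 5.42, 5.37 and 5.37 in null and 8.10, 7.28 and 7.86 in wild type. Cdc25c, the phosphatase that the checkpoint inhibits, had a log2 difference of -2.60 (SE 0.52, limma adjusted p = 0.0269), with 4.33, 5.77 and 5.69 in null and 7.08, 8.66 and 7.85 in wild type. Its replicate 1 was the lowest array in both groups, and the adjusted p was 0.0641, 0.0614, 0.0708 and 0.09 without null replicate 2, null replicate 3, wild type replicate 2 and wild type replicate 3.

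Of 25 further recombination genes 13 fell, and 16 did with the block. Parpbp, which restrains recombination at forks, and Gen1, a nuclease that cuts four-way junctions, had log2 differences of -2.24 (SE 0.20) and -2.18 (SE 0.12). Mre11a, the nuclease subunit beside Rad50 and Nbn, fell by 1.33 (SE 0.11, limma adjusted p = 0.00182) and is named after its values were seen. Of 10 further Fanconi genes 3 fell (4 with the block), among them Usp1, which removes ubiquitin from Fancd2 (log2 difference -1.77, SE 0.20), and Ercc1, part of a crosslink nuclease (log2 difference -1.34, SE 0.22, limma adjusted p = 0.0134; 0.0581 without null replicate 2 and 0.053 without null replicate 3). Ercc4, the nuclease subunit that pairs with Ercc1 and also named after its values were seen, differed by 0.15 (95% interval -0.10 to 0.40).

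In end joining and single-strand break repair 2 of 5 further genes fell, Parp1, which senses nicks and breaks (log2 difference -1.05, SE 0.11), and the scaffold gene Xrcc1 (log2 difference -0.67, SE 0.12, limma adjusted p = 0.017). For Xrcc1 the adjusted p was 0.0524, 0.062, 0.0505 and 0.0598 without null replicate 1, null replicate 3, wild type replicate 2 and wild type replicate 3. In mismatch repair and translesion synthesis 4 of 8 fell, among them Polh, a bypass polymerase (log2 difference -1.37, SE 0.17), and Msh3, a mismatch sensor (log2 difference -1.16, SE 0.14).

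**Figure D4:**
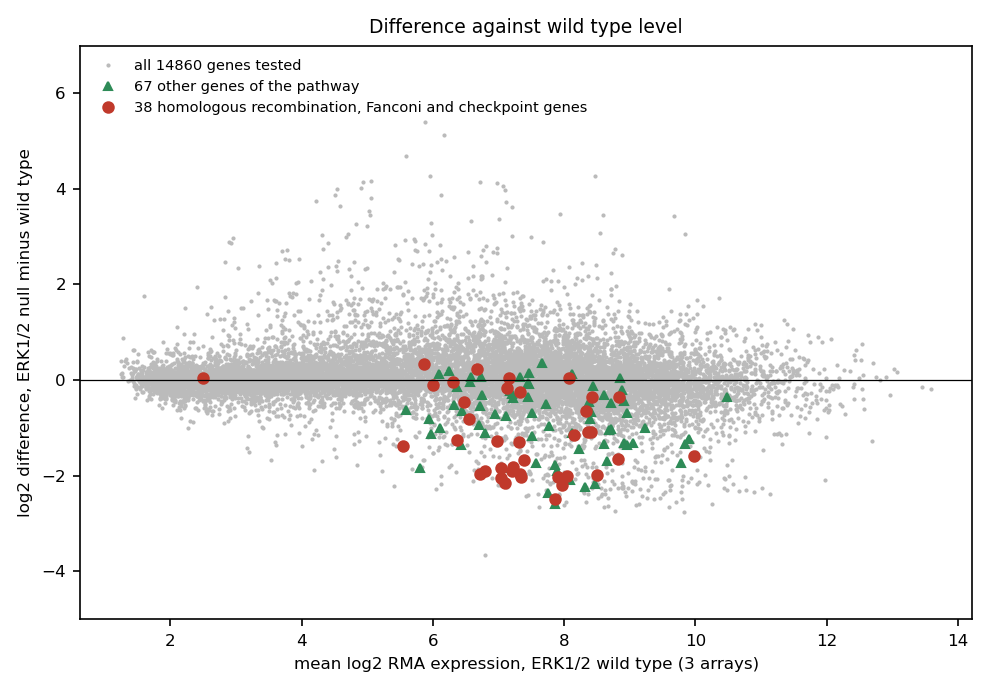
Log2 difference (ERK1/2 null minus wild type) against the mean wild type level for all 14860 genes (small dots), 67 further genes of the pathways (triangles) and the 38 genes of the list (circles). The 38 circles run from 0.34 down to -2.50, and 37 of them lie at wild type means of 5.54 to 9.98, with Dmc1 at 2.50.

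Promoters were compared because the genes that fell and those that held take part in the same reactions. RefSeq promoter windows of GRCm38.p6, from 250 bases before to 50 bases after a start site, were held for 34 of the 38 genes. An E2F motif (TTTCCCGC, TTTGGCGC, TTTCGCGC or TTTGCCGC, on either strand) was found in 6 of 22 genes that fell (27.3%) and in 4 of 12 that did not pass (33.3%), beside 3.77% of all genes tested that had a window and 2.26% of all 32851 windows. The CHR motif (TTTGAA or TTCGAA, either strand) was found in 3 of 22 (13.6%) and 0 of 12, beside 18.8% of genes tested and 19.2% of windows, and the NF-Y motif (CCAAT, either strand) in 12 of 22 (54.5%) and 6 of 12, beside 42.4% and 37.4%. E2F factors are known to drive genes of S phase, and CHR and NF-Y motifs are known from genes of G2 and mitosis. No E2F match in these windows overlapped a CHR or NF-Y match. A match shows only that the letters are present in the window, and the absence of a match says nothing of sites elsewhere.

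All E2F matches of the list are printed because they occur on both sides of the split between genes that fell and genes that held. Each line gives 28 bases of the gene's strand, 5′ to 3′, with the match in capitals (a motif found on the other strand appears as its reverse complement), in GRCm38.p6. In the genes that fell, the matches began 209 (Bard1), 168 (Brca2), 129 (Topbp1), 46 (Xrcc6) and 5 (Rad51c, first window) bases before the start site, and at bases 12 (Rad51c, second window) and 16 (Msh6) counted from the start site as 1.

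Bard1, chr1:71103164-71103191, minus strand: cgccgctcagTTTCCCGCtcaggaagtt

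Brca2, chr5:150522443-150522470, plus strand: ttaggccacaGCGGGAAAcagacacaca

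Topbp1, chr9:103305188-103305215, plus strand: cgctcggttgGCGCGAAAgtcggttccc

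Xrcc6, chr15:82016313-82016340, plus strand: gggggtggaaGCGGGAAAtgcgagtggg

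Rad51c, first window, chr11:87404942-87404969, minus strand: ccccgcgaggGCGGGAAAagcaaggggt

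Rad51c, second window, chr11:87404478-87404505, minus strand: tttccagcgcTTTCGCGCctcttgctct

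Msh6, chr17:87975055-87975082, plus strand: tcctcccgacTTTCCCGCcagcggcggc

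In the genes that did not pass, the matches began 152 (Chek2) and 52 (Fancg) bases before the start site and at bases 2 (Dmc1) and 27 (Rmi1) from it.

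Chek2, chr5:110839821-110839848, plus strand: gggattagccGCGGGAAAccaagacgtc

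Fancg, chr4:43010336-43010363, minus strand: ttcttttcagTTTCCCGCggaaccgtct

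Dmc1, chr15:79605091-79605118, minus strand: gcggccctcaTTTGGCGCcaagcccgga

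Rmi1, chr13:58402613-58402640, plus strand: cccgagggagTTTGGCGCgattggagga

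The same letters, TTTCCCGC, stood before the start site of Bard1, which fell 3.54-fold, and of Fancg, which held (1.07-fold lower in null, 95% interval of the log2 difference -0.48 to 0.29). The genes with the largest falls of the list, Exo1 and Brca1, were not among those printed: Brca1 had no E2F match in its window, and Exo1 had no window in the table.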

How the data were processed

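Per the labels' protocols, RNA was extracted with Trizol and made into biotinylated cRNA. The deposited table holds log2 expression of 16775 rows, made by the authors with RMA per the submitters' processing notes, which give no version; its values, from 0.74 to 14.32, fit a log2 scale. The platform annotation, updated through the gene table of GRCm38.p6, gave 14996 rows 1 gene; 1019 rows with several genes and 760 unlisted rows were left out. The row with the highest mean stood for a gene.

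Differences were tested with limma 3.58.1 (lmFit, eBayes) in R 4.3.3 on all 14860 genes, 2-sided, with Benjamini-Hochberg adjustment. Python 3.11.15 with pandas 2.3.3 made the tables. The procedure was tested on simulated data. Samples are labelled as numbered biological replicates, with no word on whether equal numbers share an animal. Deviations from the group means correlated at 0.57, 0.35 and 0.45 for equal numbers and at 0.04 or less for others. A gene's deviations within a group cancel out, so the values for others are in part set by those for equal numbers. Equal numbers were read as pairs from these values and not from a label. The value of the blocked fit is given where it changes the call of a named gene. For genes not named, only the counts with the block are given. Other values have no block. The members, the lists of other genes and the alternatives were chosen with earlier results of these data known. All 38 measured members are named. In each role the 6 array values are printed for up to 3 called genes with the largest and up to 2 uncalled genes with the smallest difference. The further genes are the 2 largest called of each list, and of each marker list the 2 with the highest level and the 1 with the lowest p. Pecam1 and Cdh5 were added as defining markers after their values were seen. Dcn, Dpt, Lum and Pdgfra were added for their differences, also after their values were seen. The number of arrays limits the precision. The level of the targeted genes is not reported here.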

Additional observations from a re-analysis of the deposited data

How the results depend on the processing

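The count of list genes called lower was 25 or 26 under quantile normalization, subtracted array medians, a filter on level, a robust intensity trend, weighted arrays, both other ways to treat several rows and the replicate block, and all 25 genes were kept in each of these. It was 24 without replicate 1 of both groups (Rad50 was lost), 21 at an adjusted p under 0.01, and 21 to 25 when 1 array was left out, 21 being without null replicate 2 (Atm, Fancl, Rad50 and Xrcc6 were lost). No list gene was called higher in any of these (0 of 38). Chek2 was the gene added wherever 26 fell, which was with quantile normalization, subtracted array medians, the filter on level, weighted arrays and the replicate block. With the block no other call of the list changed. Over all genes the block gave 1153 lower (7.76%) and 1326 higher (8.92%), beside 910 and 795 without it. The list median stayed between -1.36 and -1.22. Further pathway genes called lower numbered 23 at an adjusted p under 0.01, beside 37. Over all genes, 1705 were called (910 lower), 545 at an adjusted p under 0.01 (363 lower, 182 higher), 556 lower without replicate 1 of both groups, and 730 to 1331 (459 to 727 lower, 271 to 651 higher) when 1 array was left out, with 730 reached without null replicate 2. Signs turned in genes of the list that held: with array medians subtracted Dmc1 (-0.036), Mus81 (-0.046) and Trp53bp1 (-0.050); without replicate 1 of both groups Dmc1 (-0.017), Fancg (0.11) and Trp53bp1 (-0.10); and with 1 array left out Rmi1 (-0.186 to 0.066), Fancg (-0.200 to 0.023), Trp53bp1 (-0.079 to 0.099) and Mus81 (-0.093 to 0.105). With 3 arrays in each group, a gene near the threshold rests on single arrays.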
